A study of Mus musculus with 18 samples.

Results

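The Hedgehog pathway, read through 9 of the 35275 genes in the count table, was followed through 18 RNA-seq libraries of mouse malignant peripheral nerve sheath tumor (MPNST) cells. The members were taken by gene name and all 9 were found: the transcription factors *Gli1*, *Gli2* and *Gli3*, the receptor *Ptch1*, the transducer *Smo*, the inhibitors *Sufu* and *Hhip*, and the coreceptors *Boc* and *Gas1*. The libraries came from 6 cell lines, each grown from a separate primary tumor and cultured 3 times without treatment. Compared were 3 lines labelled Nf1-/-;p53-/- (*Nf1*/*p53* dKO) and 3 in which *Nf1* and *Cdkn2a* were targeted (*Nf1*/*Cdkn2a* dKO). Tumors were raised in wild-type mice by injecting the sciatic nerve with an adenovirus in which a CMV promoter drives Cas9, and the cells were passaged repeatedly before use. Targeting of *Nf1* is therefore shared by every line, and the contrast is between *p53* (*Trp53*) and *Cdkn2a* as the second gene targeted.

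Hedgehog ligands (Shh, Ihh and Dhh) bind the receptor Ptch1 and release Smo from its inhibition, which, at the primary cilium, lets Gli2 and Gli3 act as activators rather than as repressors. *Gli1*, *Ptch1* and *Hhip* are themselves targets of the Gli factors, so their RNA is commonly read as a sign of pathway activity, while Sufu holds the Gli proteins in check and Hhip and Ptch1 bind the ligand. In peripheral nerve, Dhh from Schwann cells is known for its part in forming the perineurial sheath.

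Total counts were 19560535 to 28312207 per library and 65206479 to 73065228 per line. Levels are given as CPM, reads per gene scaled to library size, and the unit of replication is the line, because its 3 cultures go back to a single tumor. The *Trp53* level was 58.7 to 94.1 CPM over the 3 lines labelled *p53*, below the 185 to 247 CPM of the *Nf1*/*Cdkn2a* dKO lines (log2 fold change 1.62 ± 0.23, edgeR adjusted p = 0.0361). With a line left out the fold change was 1.49 to 1.84 and the edgeR adjusted p 0.0436 to 0.124. *Cdkn2a* was 42.9 to 363 CPM and 169 to 392 CPM, respectively, and *Nf1* was 27.7 to 70.0 CPM and 12.7 to 38.3 CPM. Small edits made by Cas9 need not remove a transcript, so the levels of *Cdkn2a* and *Nf1* do not check their labels. The lower *Trp53* level goes with its label but does not by itself show loss of the gene. The 8 Schwann cell markers summed to 8.51 to 76.9 CPM and 6 to 62.1 CPM by line in the order of the genotypes above, mostly from *Gap43* and *Ngfr*, and the lineage factor *Sox10* was near 0, at no more than 0.0990 CPM, whereas the mesenchymal markers *Vim* (4727 to 10207 CPM) and *Col1a1* (302 to 4173 CPM) were high in each.

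The 9 members spanned a wide range of levels. Per kilobase of exon, which allows levels of different genes to be set side by side, the means of the *Nf1*/*p53* dKO lines ran from 40.6 CPM per kb for *Gas1* and 21.7 for *Smo*, through 6.23 for *Gli3* and 5.24 for *Sufu*, to 1.57 for *Boc*, 1.13 for *Hhip*, 0.845 for *Ptch1*, 0.304 for *Gli2* and 0.182 for *Gli1*. In the *Nf1*/*Cdkn2a* dKO lines *Smo* (23.5 CPM per kb) and *Gas1* (20.1) came first, followed by *Sufu* (6.32), *Gli3* (5.35), *Ptch1* (0.865), *Boc* (0.524), *Gli2* (0.101), *Gli1* (0.0526) and *Hhip* (0.00915). *Gli3* was the most abundant *Gli* gene per kb in both genotypes. By the ranges of the lines, *Gas1* and *Smo* overlapped, as did *Gli3* and *Sufu*, and each of these pairs lay apart from the genes that followed it. In *Nf1*/*p53* dKO *Boc* and *Ptch1* overlapped and lay above *Gli2* and *Gli1*, which overlapped, while the range of *Hhip* reached into those of all 4. In *Nf1*/*Cdkn2a* dKO each gene from *Ptch1* down to *Hhip* overlapped with its neighbor in this order.

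**Figure D1:**
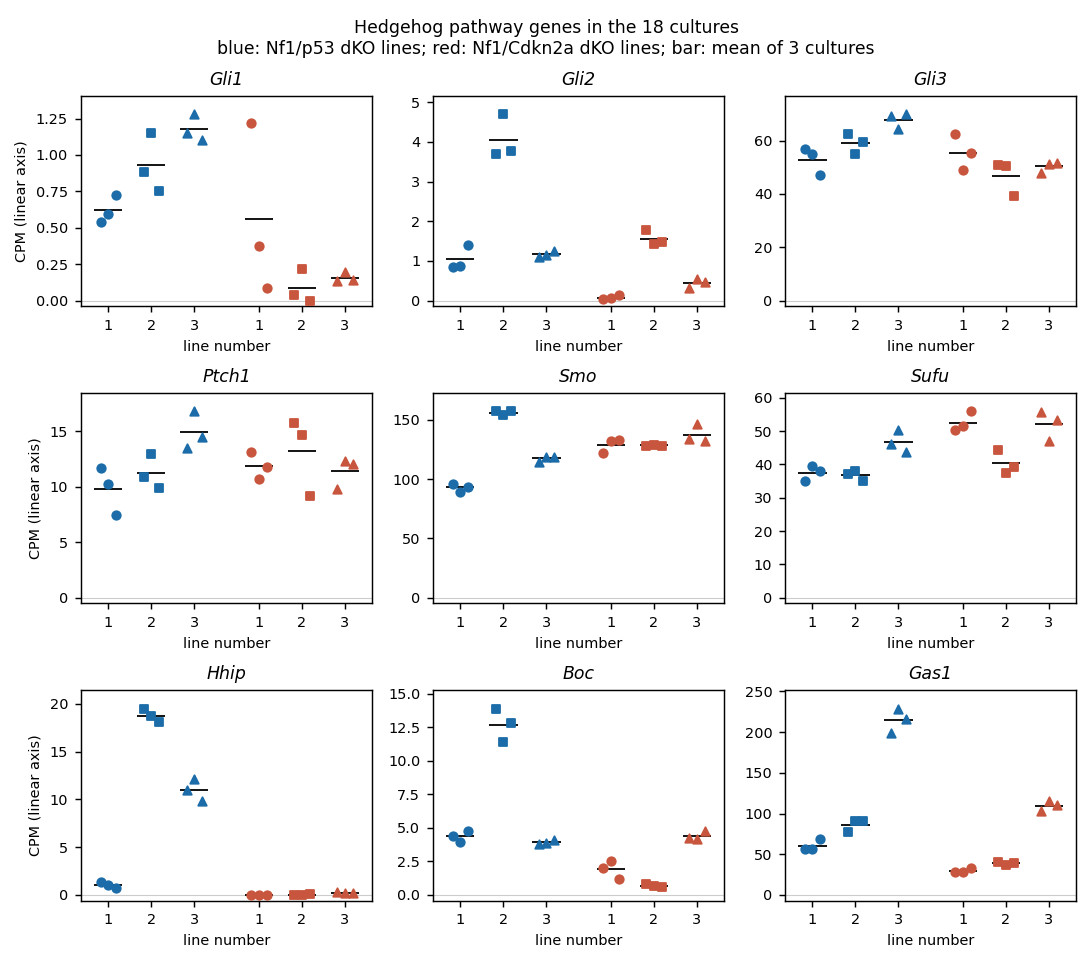
Level of each member in the 18 cultures, in CPM on a linear axis, with the lines of each genotype along the horizontal axis, a point per culture and a bar at the mean of the 3 cultures of a line. *Hhip* was at most 0.272 CPM in the 9 *Nf1*/*Cdkn2a* dKO cultures and at least 0.724 CPM in the 9 *Nf1*/*p53* dKO cultures, while *Ptch1* and *Gli3* overlapped.

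The genotype comparison asked whether any member differed between 3 lines and 3 lines by more than the lines of a genotype differed from each other. None of the 9 members passed an adjusted p of 0.05 in edgeR's quasi-likelihood test on counts summed per line. *Hhip* and *Gli1*, 2 of 9, had an unadjusted p under 0.05, near the 22.4% of all genes tested that did. Over all 15207 genes tested, 0.638% were called higher and 1.16% lower in *Nf1*/*Cdkn2a* dKO, so a count of 0 among 9 genes is near the background. DESeq2 on the 6 lines called 1 member (*Hhip*), beside 12.0% of all genes, and limma-voom, with lines as random effects over 18 cultures, called 2 (*Hhip* and *Boc*), beside 16.6% of all genes. With the 18 cultures treated as separate samples, DESeq2 and edgeR each called 7 of 9, beside 39.3% of all genes with DESeq2 and 46.5% with edgeR. The median log2 fold change of the 9 members was -1.01 against -0.02 over all genes tested, with 6 members lower and 3 higher in *Nf1*/*Cdkn2a* dKO. *Gli1*, *Gli2* and *Hhip*, all among the lower ones, needed the *Nf1*/*p53* dKO lines to pass the low-count filter. The median and the count of lower members therefore carry no weight as a test.

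The ligand-binding inhibitor *Hhip* (Hedgehog interacting protein, chromosome 8, 79965851 to 80058006, minus strand, GRCm38) had the widest difference of the 9. Its counts in cultures 1, 2 and 3 were 31, 30 and 18 in *Nf1*/*p53* dKO line 1, 466, 453 and 407 in line 2, and 259, 302 and 234 in line 3. In the *Nf1*/*Cdkn2a* dKO lines they were 0, 0 and 0 in line 1, 0, 0 and 1 in line 2, and 6, 5 and 4 in line 3. Every culture of one genotype was therefore above every culture of the other, though these are only 3 lines against 3. *Hhip* also needed the *Nf1*/*p53* dKO lines to pass the low-count filter, so its direction carries no weight as a test. By line the levels were 1.02, 18.8 and 11 CPM against 0, 0.0144 and 0.235 CPM, where the 0 allows up to 0.0481 CPM (3 counts, for counting error only). The means were 10.3 ± 8.89 (SD, n = 3) and 0.0830 ± 0.131 CPM (SD, n = 3), a ratio of 124, and the lowest *Nf1*/*p53* dKO line was 4.34 times the highest *Nf1*/*Cdkn2a* dKO line. The fitted log2 fold change was -6.93 ± 1.66 (SE) with an edgeR adjusted p of 0.0839 (unadjusted 0.00478). Over the alternatives the adjusted p ran from 1.04e-13 (DESeq2 on 18 cultures) to 0.205 (without *Nf1*/*Cdkn2a* dKO line 2). Without line 3 of *Nf1*/*Cdkn2a* dKO, which held 15 of the 16 counts of that genotype, the fitted value was -10.1, so the fold rests on very few reads. Exons of the annotated gene *Gm27820* lie on the opposite strand of *Hhip*, and whether the counting used strand is not given in the sources used here.

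Of the *Gli* factors, *Gli1* (chromosome 10, 127329882 to 127341974), a target and amplifier of the pathway, was low in every line. Its counts were 12, 18 and 18, 21, 28 and 17, and 27, 32 and 26 in the cultures of *Nf1*/*p53* dKO lines 1 to 3, against 25, 7 and 2, 1, 5 and 0, and 3, 4 and 3 in those of *Nf1*/*Cdkn2a* dKO. The lines did not overlap, at 0.619, 0.934 and 1.18 CPM against 0.545, 0.0865 and 0.156 CPM, but culture 1 of *Nf1*/*Cdkn2a* dKO line 1 (1.22 CPM) lay inside the range of the other genotype. The log2 fold change was -1.79 ± 0.73 with an edgeR adjusted p of 0.216, and -2.88 without *Nf1*/*Cdkn2a* dKO line 1. Leaving that culture out, an alternative chosen after seeing the data, gave -2.59 and 0.0591. Its library also stood apart from the other cultures of its line across genes (chi-square per degree of freedom 26.5 and 29.2), not only in *Gli1*. *Arhgap9*, whose exons lie opposite those of *Gli1*, reached 0.369 CPM in the same line and at most 0.0424 CPM in the others. In the 3 cultures of that line *Arhgap9* had 3, 11 and 9 counts, the lowest in the culture with the most *Gli1* counts, and its part in the *Gli1* value was not tested.

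*Gli2*, the main activator of the family, varied more between lines than between genotypes. It stood at 1.03, 4.06 and 1.18 CPM in *Nf1*/*p53* dKO lines 1 to 3 and at 0.0802, 1.57 and 0.438 CPM in *Nf1*/*Cdkn2a* dKO lines 1 to 3. The genotypes overlapped (log2 fold change -1.58 ± 1.05, edgeR adjusted p = 0.420). The value was -0.65 without *Nf1*/*p53* dKO line 2 and -2.99 without *Nf1*/*Cdkn2a* dKO line 2. *Gli3*, the main repressor, was 52.6, 58.9 and 67.8 CPM against 55.8, 47.5 and 50.5 CPM, with a log2 fold change of -0.22 ± 0.15 and an edgeR adjusted p of 0.430. Between the highest and lowest *Nf1*/*p53* dKO line, *Gli3* differed by 1.29 times and *Gli2* by 3.94 times.

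The receptor *Ptch1* and the transducer *Smo* gave the smallest fold changes of the 9. *Ptch1* was 9.71, 11.3 and 15 CPM in *Nf1*/*p53* dKO and 11.9, 13.5 and 11.4 CPM in *Nf1*/*Cdkn2a* dKO. Its log2 fold change was 0.03 ± 0.24 (edgeR adjusted p = 0.949) and ranged from -0.10 to 0.23 as each line was left out. It turned to -0.01 with upper-quartile scaling and to -0.10 with raw library totals, a scaling that moved the median over all genes by -0.13. *Smo* was 92.1, 156 and 117 CPM against 129, 129 and 138 CPM, with a log2 fold change of 0.12 ± 0.20 (edgeR adjusted p = 0.771) that turned to -0.01 with raw totals. The ranges overlapped for both, and a p above the threshold does not show that the levels were alike. *Sufu*, which binds and restrains the Gli proteins, was 37.5, 36.7 and 46.8 CPM against 52.8, 40.6 and 52.3 CPM, with a log2 fold change of 0.27 ± 0.18 and an edgeR adjusted p of 0.410.

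The coreceptors *Boc* and *Gas1*, which help ligand reach Ptch1, varied widely between lines. *Boc* was 4.30, 12.7 and 3.94 CPM in *Nf1*/*p53* dKO and 1.88, 0.707 and 4.41 CPM in *Nf1*/*Cdkn2a* dKO. Its log2 fold change was -1.58 ± 0.77 (edgeR adjusted p = 0.283) and was -0.81 without *Nf1*/*p53* dKO line 2, the highest line, and -2.43 without *Nf1*/*Cdkn2a* dKO line 3. *Gas1* was 60.0, 86.0 and 215 CPM against 29.7, 39.1 and 110 CPM, ranges that overlapped. Its log2 fold change was -1.01 ± 0.65 (edgeR adjusted p = 0.402), with -0.29 without *Nf1*/*p53* dKO line 3 and -1.80 without *Nf1*/*Cdkn2a* dKO line 3. Annotated genes also lie opposite exons of *Gas1* (*Gm48488*), *Gli3* (*Gm6556*) and *Gli1* (*Gm47200*, beside *Arhgap9*), and reads of these pairs cannot be told apart without strand.

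**Figure D2:**
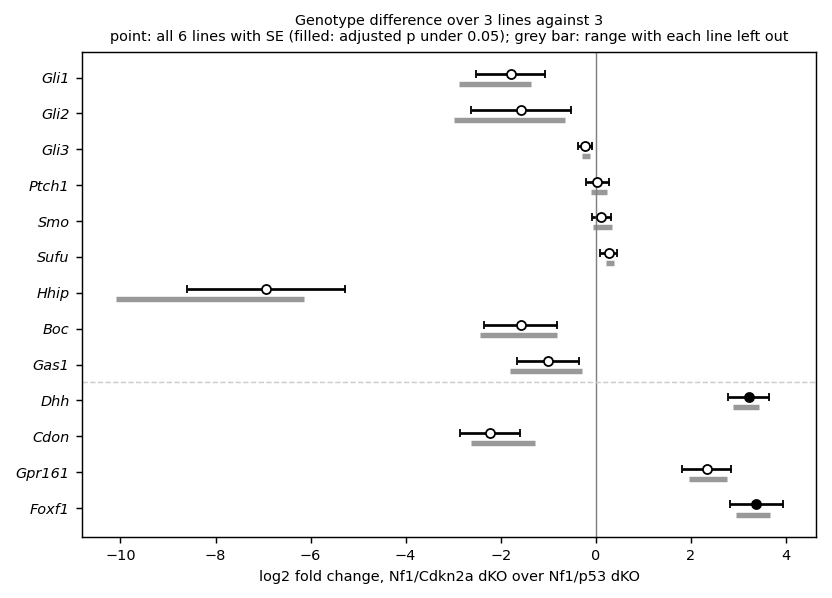
Log2 fold change of *Nf1*/*Cdkn2a* dKO over *Nf1*/*p53* dKO for the 9 members (above the dashed line) and 4 other pathway genes, with SE bars and, in grey, the range as each of the 6 lines was left out. The *Hhip* point sits at -6.93 with a grey range of -10.1 to -6.14, and *Dhh* and *Foxf1* alone are filled as called.

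Lines of one genotype were then compared with their cultures as replicates, a test of line against line that says nothing about genotype. Among the *Nf1*/*p53* dKO lines 8 of 9 members differed, all but *Gli1* (edgeR adjusted p = 0.363), beside 73.2% of 14690 genes. The adjusted p was lowest for *Gas1* (3.85e-16), *Hhip* (8.37e-14), *Smo* (4.17e-11) and *Boc* (3.27e-09), and *Hhip* spanned 18.4 times between the highest and lowest line. Among the *Nf1*/*Cdkn2a* dKO lines 6 of 9 differed, beside 56.8% of genes, and those not called were *Gli3* (edgeR adjusted p = 0.0877), *Ptch1* (0.507) and *Smo* (0.257). *Gli2* spanned 19.6 times between those lines (1.74e-07) and *Boc* 6.24 times (4.64e-09). The *Gli1* call among these lines (0.0168) was lost without culture 1 of line 1 (0.461), and without it line 1 stood at 0.214 CPM.

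By the lines alone, *Hhip* and *Gli1* were the 2 of 9 members whose *Nf1*/*Cdkn2a* dKO lines all lay below the *Nf1*/*p53* dKO lines, against 16.6% of all genes tested, and 0 of 9 had all lines above, against 14.8%. The count is near that background. Both genes needed the *Nf1*/*p53* dKO lines to pass the low-count filter. Their *Nf1*/*Cdkn2a* dKO lines 1 to 3 held 0, 1 and 15 counts for *Hhip* and 34, 6 and 10 for *Gli1*. Their direction thus carries no weight as a test.

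The rest of the pathway, 53 genes in 5 lists, was read for the ligands, receptors, regulators, cilium and targets that act with the 9 members. Of these, 47 could be tested and 2 were called, both higher in *Nf1*/*Cdkn2a* dKO (*Dhh* and *Foxf1*). Over all genes tested, 0.638% were called higher and 1.16% lower. The median log2 fold change over the 47 was 0.02, and 11 had an unadjusted p under 0.05, near the 22.4% of all genes tested.

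Among 8 ligand and ligand-release genes 5 were tested and *Dhh*, the ligand of peripheral nerve (chromosome 15, 98891152 to 98898540), was the only one called. Its counts by culture were 3, 14 and 10, 9, 10 and 23, and 17, 11 and 7 in *Nf1*/*p53* dKO lines 1 to 3, and 145, 87 and 162, 107, 94 and 63, and 98, 52 and 57 in *Nf1*/*Cdkn2a* dKO lines 1 to 3. All 9 cultures of the second genotype were above all 9 of the first, though these are only 3 lines against 3. By lines, 14.8% of all genes tested lay apart in this direction. By line it was 0.348, 0.594 and 0.484 CPM against 6.32, 3.81 and 3.24 CPM, a log2 fold change of 3.22 ± 0.43 with an edgeR adjusted p of 0.0359. The call was lost whichever line was left out, with adjusted p of 0.0637 to 0.123 over those 6 fits and fold changes of 2.89 to 3.43. *Shh* had no count in any library, *Ihh* was at most 0.184 CPM in a line (0.494 CPM in a culture) and was not tested, and the lowest fold change of the list was *Scube1*, a ligand-release factor, at -0.70 (edgeR adjusted p = 0.742).

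Of 4 other receptors and coreceptors 3 were tested and none called. *Cdon*, a coreceptor related to *Boc*, was 15.1, 28.6 and 83.5 CPM against 7.70, 7.56 and 11.8 CPM, lines that did not overlap, with a log2 fold change of -2.23 ± 0.63 and an edgeR adjusted p of 0.110. DESeq2 on the 6 lines (adjusted p = 0.00381) and limma-voom (0.0103) called it, and without *Nf1*/*p53* dKO line 3, the highest, the log2 fold change was -1.27.

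Among 18 kinases, proteolysis factors and other regulators of Gli, all tested, none was called, and the lowest fold change was that of *Prkacb*, a catalytic subunit of protein kinase A (-0.78, edgeR adjusted p = 0.121). Of 12 cilium genes, all tested, none was called, from *Ift172*, a transport protein (-0.50, edgeR adjusted p = 0.189), to *Gpr161*, a ciliary receptor that restrains the pathway (2.33 ± 0.52, 0.0714). *Gpr161* was 11.6, 8.34 and 3.09 CPM against 24.6, 47.6 and 44.0 CPM, lines that did not overlap, and DESeq2 on the 6 lines called it (0.000187).

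Of 11 other reported Gli targets 9 were tested. *Foxf1*, a mesenchymal transcription factor (chromosome 8, 121084386 to 121088144), was 16.1, 3.72 and 15.9 CPM against 100, 139 and 131 CPM, with a log2 fold change of 3.38 ± 0.56 and an edgeR adjusted p of 0.0465. With a line left out it was called in 1 of 6 fits, that without *Nf1*/*p53* dKO line 2 (0.0312), and the others gave 0.0769 to 0.133. *Foxf2* had the lowest fold change of the list (-1.79, edgeR adjusted p = 0.422). *Nkx2-2*, not tested, had 143, 166 and 192 counts in the cultures of *Nf1*/*Cdkn2a* dKO line 1 and none elsewhere. Of the Gli targets, *Foxf1* was thus called, and *Hhip*, *Gli1* and *Ptch1* did not pass the same test. Any link between the level of *Dhh* and those of these targets was not tested.

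**Figure D3:**
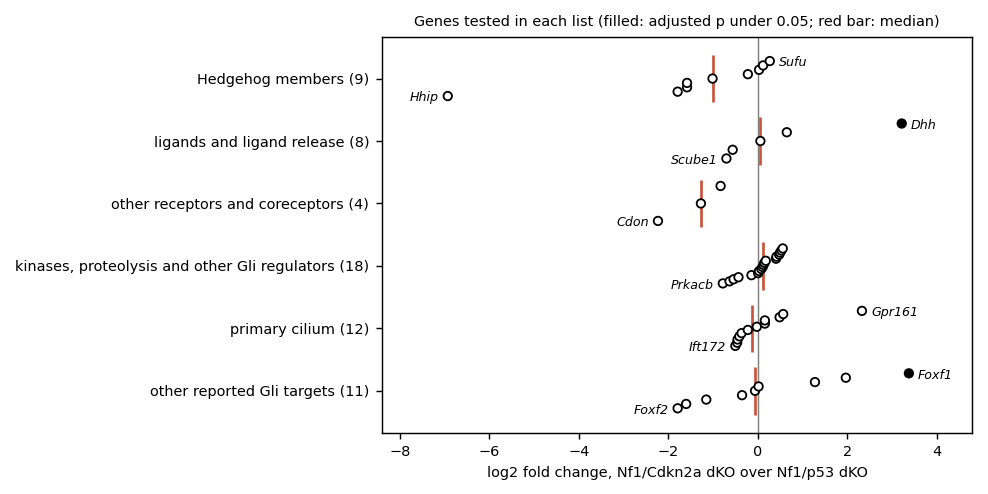
Log2 fold change of *Nf1*/*Cdkn2a* dKO over *Nf1*/*p53* dKO for each tested gene, in rows by list, with called genes filled, the list's median in red and some of the genes at the ends of a list named. The medians were -1.01 for the 9 members, 0.06, -1.27, 0.12, -0.12 and -0.06 for the other lists in order, and the 2 called genes are *Dhh* and *Foxf1*.

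Upstream sequence was read from RefSeq for the build GRCm38.p6, as windows of 250 bases upstream of a RefSeq start. Of the 9 members 7 were matched (*Gli1* and *Boc* were not). By the gene bounds of GENCODE, the windows of *Gli3* and *Ptch1* lie inside the gene, and that of *Gas1* does not adjoin its start. The 9-base consensus bound by Gli factors, GACCACCCA on either strand, was in 74 of 32851 windows (0.225%) and in none of the 7, and its 6-base core CCACCC, which lies inside it, was in 28.1% of windows and in those of *Gli2*, *Gli3*, *Hhip* and *Smo*. A match is a description of letters, and no match says only that these letters are not in this window. The windows of *Hhip*, the member with the widest difference, of *Gli2*, the factor that varied most between lines, and of *Dhh*, the called ligand, are shown with each copy of the core or its reverse complement (GGGTGG) in capitals. They are at chr8:80058009-80058258, chr1:119053620-119053869 and chr15:98898541-98898790, all on the minus strand and written 5′ to 3′ on that strand.
Hhip: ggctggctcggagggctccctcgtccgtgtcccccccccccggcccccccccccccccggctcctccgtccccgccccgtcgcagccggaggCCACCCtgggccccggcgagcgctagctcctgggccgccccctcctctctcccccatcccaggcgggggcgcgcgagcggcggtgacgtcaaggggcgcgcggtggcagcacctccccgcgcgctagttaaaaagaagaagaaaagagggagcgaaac
Gli2: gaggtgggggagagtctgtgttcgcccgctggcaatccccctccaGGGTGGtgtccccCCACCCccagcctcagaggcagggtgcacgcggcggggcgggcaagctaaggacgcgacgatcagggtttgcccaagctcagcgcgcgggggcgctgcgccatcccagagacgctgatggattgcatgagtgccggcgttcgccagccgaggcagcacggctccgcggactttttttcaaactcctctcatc
Dhh: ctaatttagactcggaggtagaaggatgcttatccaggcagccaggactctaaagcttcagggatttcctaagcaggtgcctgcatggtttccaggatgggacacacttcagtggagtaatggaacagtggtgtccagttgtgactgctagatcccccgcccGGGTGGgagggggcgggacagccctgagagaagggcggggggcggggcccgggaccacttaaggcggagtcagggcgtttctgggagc
The GC content was 76.0% for *Hhip*, 67.2% for *Gli2* and 59.6% for *Dhh*, against a median of 52.4% over all windows. *Hhip* held 28 CpG pairs, *Gli2* 22 and *Dhh* 9, against a median of 6.

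Of the marker lists of other cell types, that of muscle progenitors was lower in *Nf1*/*Cdkn2a* dKO, the genotype where *Hhip* was low. Its 8 markers summed to between 114 and 578 CPM in *Nf1*/*p53* dKO lines and 7.6 to 28 CPM in the *Nf1*/*Cdkn2a* dKO lines. The latter sums were mostly *Chrna1* (mean 15.5 CPM). All 5 tested had negative fold changes and an unadjusted p under 0.05 (22.4% of all genes had such a p in either direction). Of these, *Myf5* (edgeR adjusted p = 0.00672), a factor that commits cells to muscle, and the cadherin *Cdh15* (0.0191) were called. *Myf5* and *Myod1* were at or near 0 CPM in *Nf1*/*Cdkn2a* dKO, and *Des* was low there (mean 0.207 CPM). These genes passed the filter only through the *Nf1*/*p53* dKO lines. Their negative sign was thus fixed in advance, so the count of 5 carries no weight as a test. *Myod1* also spanned 758 times among the *Nf1*/*p53* dKO lines. *Myf5* stood at 28, 24.2 and 27.7 CPM against 0, 0 and 0.0156 CPM. Among the *Nf1*/*p53* dKO lines *Myf5* spanned 1.16 times and *Hhip* 18.4 times, so the 2 went together only by genotype. The defining satellite cell marker *Pax7* was at or below 3 counts in every library. The 8 mesenchymal markers summed to 8208 to 17298 CPM and 9921 to 16691 CPM, and *Dcn* of that list was called lower (edgeR adjusted p = 0.0470). The 7 endothelial markers summed to 1.71 to 2.52 CPM and 8.48 to 26.5 CPM, where *Esam* was called higher (edgeR adjusted p = 0.0381) and *Tek* lower (0.0465), while *Kdr* and *Erg* of that list were at most 0.665 CPM. The 7 leukocyte markers summed to 3.86 to 8.09 CPM and 18.3 to 26.5 CPM, where *Laptm5* was called higher (edgeR adjusted p = 0.0301) and *Ptprc* was at most 0.563 CPM. No marker was called in the perineurial list (95.2 to 139 CPM and 130 to 158 CPM) or the epithelial list (2.67 to 739 CPM and 8.26 to 611 CPM). The part of cell state in the *Hhip* value was not tested, and in bulk cultures fewer cells of a type and less RNA per cell cannot be told apart.

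**Figure D4:**
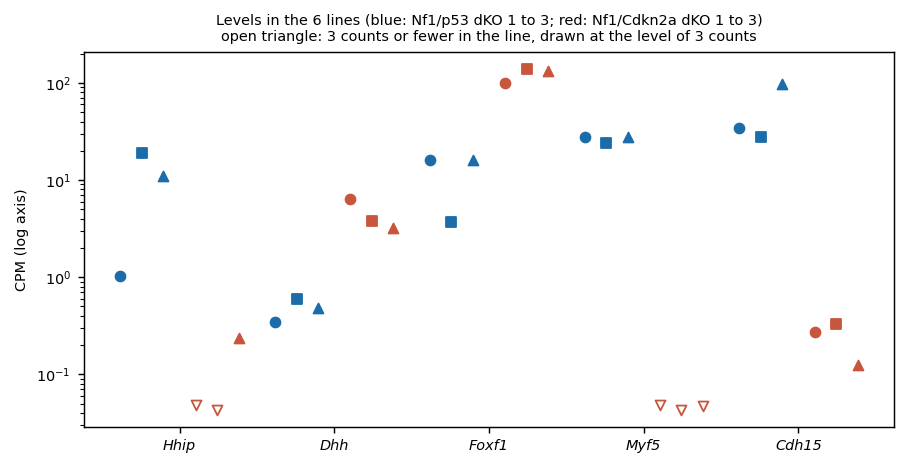
Level in each of the 6 lines, in CPM on a log axis, for *Hhip*, *Dhh*, *Foxf1*, *Myf5* and *Cdh15*. Filled symbols stand for single lines, and open triangles for lines with 3 counts or fewer, drawn at the level of 3 counts (0.0433 and 0.0481 CPM for *Hhip* in *Nf1*/*Cdkn2a* dKO lines 2 and 1). *Myf5* and *Hhip* are low in the 3 *Nf1*/*Cdkn2a* dKO lines, but among the *Nf1*/*p53* dKO lines *Hhip* spanned 18.4 times and *Myf5* 1.16 times.

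Over the 18 cultures the 5 genes whose log2 CPM ran closest to *Gli1*, among 14689 others, were *Lifr* (Pearson's r = 0.934), *Pphln1* (0.931), *Nup155* (0.919), *Zfr* (0.907) and *Fignl1* (0.904). For *Gas1* they were *Sirpa* (0.987), *Ranbp3l* (0.983), *Pdk1* (0.965), *Sesn1* (0.960) and *Sgcb* (0.957). The cultures came from only 6 lines and share line and library, so these values describe the libraries and carry no test.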

How the data were processed

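RNA was extracted from 18 cultures (3 per line, 3 lines per genotype), and a company made and sequenced the libraries. The values the authors deposited are whole read counts, without normalization, for 35275 genes. The submitters' processing notes name CASAVA, STAR 2.5, DESeq2 1.14.1 and the build GRCm38. The counting tool and its strand setting are not given in the sources used here. Column names gave the genotype, line and culture.

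The 3 cultures of each line were added up. Genes were filtered with filterByExpr (minimum count 10, minimum total 15), normalized by TMM and tested by quasi-likelihood in edgeR 4.0.16 (R 4.3.3; alternatives in DESeq2 1.42.0 and limma 3.58.1; Python 3.11.15) with Benjamini-Hochberg adjustment over all 15207 genes and a threshold of 0.05. Positive log2 fold changes mean higher in *Nf1*/*Cdkn2a* dKO. Lines within a genotype were compared in a fit over all 18 cultures. Levels per kb used the union of exons in GENCODE M21. Scaled line totals of 62334688 to 77585674 counts put 3 counts in a line at 0.0387 to 0.0481 CPM. P-values among lines measure only the spread between cultures of a line, which may be technical.

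The 9 members and the gene lists were chosen with earlier results of these data known. Genes named are the members, the ligands and *Cdon*, every called gene and the highest and lowest fold change of each list, the 5 genes most like *Gli1* and *Gas1*, and markers that moved with a result. A few genes that this rule names are left out of the text. *Nkx2-2* and the targeted genes fall outside that rule, and *Nkx2-2* was chosen after its values were seen. Alternatives covered other tools, scalings, filters, blocks and each line or culture left out. The steps were tested on simulated counts.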

Additional observations from a re-analysis of the deposited data

Results flagged for a closer look

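In the 9 cultures of a genotype, 2 values stood apart from the rest of their group by Dixon's test, out of 18 gene and genotype groups examined, where chance flags about 1 in 20 groups of independent values. The 9 cultures are 3 from each of 3 lines and so are not independent. *Gli1* in culture 1 of *Nf1*/*Cdkn2a* dKO line 1 was 1.22 CPM, and the next highest of the 9 cultures was 0.373 CPM (Dixon's ratio 0.695). Across genes, the library of that culture also differed from the others of its line. The chi-square per degree of freedom was 26.5 and 29.2, where all other pairs of cultures of a line gave 3.57 to 13.8. *Smo* in culture 2 of *Nf1*/*Cdkn2a* dKO line 3 was 146 CPM, and the next highest was 134 CPM (ratio 0.502). The critical ratio for 9 values is 0.493. On the log2 scale neither stood apart.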

How the results depend on the processing

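The genotype comparison called 0 of the 9 members, also with RLE, upper-quartile or raw scaling, with no filter, with at least 10 counts in every line (where *Gli1*, *Gli2* and *Hhip* were not tested) and with each line left out (0 to 0). It called 7 with edgeR or DESeq2 on 18 cultures, 2 with limma-voom and 1 with DESeq2 on 6 lines. All-gene calls were 274, and 6096, 7186, 2173 and 2060 in those fits, 423 with raw totals and 0 to 172 with a line left out. Other pathway calls were 2, and 26, 27, 11 and 4 in those fits, and 0 to 1 with a line left out. *Ptch1* turned to -0.01 with upper-quartile factors, -0.10 with raw totals, -0.10 without *Nf1*/*p53* dKO line 1 and -0.03 without *Nf1*/*Cdkn2a* dKO line 2, and *Smo* to -0.01 with raw totals and -0.05 without *Nf1*/*p53* dKO line 1 (over all lines left out, -0.10 to 0.23 and -0.05 to 0.35). Without culture 1 of *Nf1*/*Cdkn2a* dKO line 1 (chosen after seeing the data), 0 members and 320 genes were called. Calls among lines were 7 to 8 of 9 in *Nf1*/*p53* dKO and 5 to 7 in *Nf1*/*Cdkn2a* dKO with a culture number left out, and 4 with DESeq2's likelihood ratio test in the latter. Outlying cultures were 2 on CPM and 0 on log2 CPM.

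Line and culture numbers only name samples. Deviations of same-numbered lines correlated at -0.133 to -0.0848 and those of same-numbered cultures at -0.0634 to 0.0883, so they do not pair them. With the line number as a replicate block 0 members, 0 other pathway genes and 0 genes in all were called, and with the culture number as a replicate block over 18 cultures 6, 22 and 5681. Among lines that block left 8 and 6 members called. The cause of these changes was not tested. Low counts limit *Gli1*, *Gli2* and *Hhip*.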
